A study of Mus musculus with 3 samples.

Results

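Matricellular genes encode secreted proteins that lie in the extracellular matrix and change how cells attach to it and respond to growth factors, without building the matrix's framework. The 8 genes described here were chosen by name: Sparc, Sparcl1, Smoc1 and Smoc2 of the SPARC family, the fasciclin-domain genes Postn and Tgfbi, the tenascin gene Tnc and the osteopontin gene Spp1. Their members were all probe sets (groups of short probes against one transcript) annotated to 1 of these genes alone. This gave 14 of the array's 45101 probe sets, for 7 of the 8 genes. No probe set used here was annotated to Spp1, so it has no value. Of the 14 probe sets, 13 were above background on at least 1 array and 10 on all 3. All 7 genes had a probe set above it on at least 1 array, and 5 had one above it on all 3. Over the whole array, 13345 of 18193 genes were above it on at least 1 array and 10244 on all 3.

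RNA came from primary cultures of pigment epithelium of adult C57BL/6 mice aged 6 to 8 weeks, with 1 array for each culture. The cultures were from the iris (IPE), the ciliary body (CBPE) and the retina (RPE). IPE and CBPE had been grown with 10% fetal bovine serum in RPMI medium and RPE with 20% in DMEM, so tissue and medium cannot be told apart in any comparison with RPE. All cultures spent the last night without serum. The labels give more than 99% cytokeratin-positive cells for IPE and more than 95% for CBPE and RPE, the latter pair after 14 days in culture, and no number of animals. The series asks about thrombospondin-1, itself a matricellular protein, in the T cell response to these cells.

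A signal is a linear intensity in arbitrary units, scaled to one common level on every array. Background was set on each array at the median of its own probe sets: 14.5 on the IPE array, 17.3 on CBPE and 16.8 on RPE. A gene or marker above background is thus only in the upper 50% of its array. A signal under this floor was raised to it, and a fold against it is written as at least that size. Control probe sets for bacterial RNA that the samples lack went up to 7.9, 20.2 and 16.6 on the same arrays. With 1 array per culture no test was possible, and the spread between animals and cultures is unknown. The available measure of error is how far different probe sets of 1 gene disagreed on a log2 difference, a pooled SD of 0.49 in CBPE minus IPE over 1666 genes, 0.45 in RPE minus IPE over 1773 and 0.29 in RPE minus CBPE over 1693. This SD comes from signals above 100 on both arrays and does not measure the error of dimmer ones. The arrays also differed in range, with top signals of 8441 for IPE, 19334 for CBPE and 13849 for RPE.

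SPARC binds collagen and calcium and is made by cells that remodel matrix, and SMOC proteins are related modular proteins of basement membranes. Periostin, encoded by Postn, and TGFBI share fasciclin domains, bind integrins and collagens, and are known as genes induced by TGF-β. Tgfbi is known in the eye for the corneal dystrophies its mutations cause. Tenascin-C, encoded by Tnc, is an oligomeric protein of injured and developing tissue, and matricellular proteins of the aqueous outflow path are studied in glaucoma.

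The genes divided by culture. Sparc and Postn were bright in all 3 cultures and differed by at most 2.01-fold between them. Tgfbi was the gene that differed most, with a signal of 73.2 for IPE, 1072 for CBPE and 502.7 for RPE by the brightest of its probe sets. Tnc was highest in CBPE, while its IPE and RPE signals lay close together. Smoc1 was highest in IPE and Smoc2 highest in RPE, and Sparcl1 was above background in CBPE alone.

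Promoters in RefSeq's table for GRCm38.p6 were matched for 5 of the 8 genes, Spp1 among them, and not for Sparcl1, Smoc1 or Smoc2. The 250 bases before the first start site are shown for the 2 genes with CBPE past 2-fold over both other cultures by probe sets above background on every array, Tgfbi and Tnc, and for the bright genes Sparc and Postn. Each is written 5′ to 3′ on the gene's strand, and capitals mark matches on either strand to 5 short motifs: TGANTCA (the AP-1 motif), CAGACA (bound by SMADs), GGAATG (bound by TEADs), GGGCGG (the GC box) and TATANA (TATA box-like). They lie at chr13:56609336-56609585 (+) for Tgfbi, chr4:64047016-64047265 (-) for Tnc, chr11:55420081-55420330 (-) for Sparc and chr3:54359017-54359266 (+) for Postn.
Tgfbi: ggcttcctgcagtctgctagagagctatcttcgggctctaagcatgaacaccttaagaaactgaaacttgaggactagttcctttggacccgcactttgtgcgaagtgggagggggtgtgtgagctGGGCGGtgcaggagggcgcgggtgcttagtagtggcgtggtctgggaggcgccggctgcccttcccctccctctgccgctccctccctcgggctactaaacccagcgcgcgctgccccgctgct
Tnc: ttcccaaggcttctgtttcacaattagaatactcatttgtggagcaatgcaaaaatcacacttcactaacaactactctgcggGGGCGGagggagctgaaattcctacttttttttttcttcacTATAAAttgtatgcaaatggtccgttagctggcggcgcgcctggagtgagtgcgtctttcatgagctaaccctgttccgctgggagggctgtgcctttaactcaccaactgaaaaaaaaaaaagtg
Sparc: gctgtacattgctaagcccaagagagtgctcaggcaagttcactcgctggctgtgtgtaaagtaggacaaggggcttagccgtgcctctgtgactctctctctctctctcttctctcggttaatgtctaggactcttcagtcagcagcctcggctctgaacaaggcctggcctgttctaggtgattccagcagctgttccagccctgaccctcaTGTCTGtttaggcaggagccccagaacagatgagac
Postn: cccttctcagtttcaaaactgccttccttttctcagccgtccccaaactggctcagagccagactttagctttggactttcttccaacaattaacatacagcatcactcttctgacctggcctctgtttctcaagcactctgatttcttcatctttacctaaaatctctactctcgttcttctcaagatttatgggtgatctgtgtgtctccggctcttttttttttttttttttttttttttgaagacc

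The Tgfbi window held 1 GC box, 124 to 119 bases before the start, and the Tnc window held 1 as well, 167 to 162 bases before it. The Tnc window also held a TATANA match 126 to 121 bases before the start, and the Sparc window a CAGACA match on the other strand 36 to 31 bases before it. The Postn window shown held none of the 5 motifs, while a second start site listed for Postn had TATANA matches 212 to 207, 28 to 23 and 26 to 21 bases before it. The second start listed for Tnc lies downstream, and its window overlaps the one shown. The same GC box and TATANA match lay 246 to 241 and 205 to 200 bases before this second start. Its window also held a TATANA match 29 to 24 and a CAGACA match on the other strand 71 to 66 bases before it. Of 32851 windows of the same length, 32.7% held the GC box, 22.6% TATANA, 17.1% CAGACA, 12.6% GGAATG and 6.75% TGANTCA. These matches describe the letters only.

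Sparc, whose product osteonectin binds collagen and calcium, gave signals of 6700 for IPE, 13477 for CBPE and 11781 for RPE by its brightest probe set. A second bright probe set gave 6288, 10268 and 10449.6. Both had IPE lowest, and they ordered CBPE and RPE differently. CBPE was 2.01-fold above IPE by the first, just past the 2-fold limit, and 1.63-fold by the second. RPE was 1.76-fold and 1.66-fold above IPE, and CBPE and RPE lay within 1.14-fold of each other by both. The log2 difference of 1.01 between CBPE and IPE was 0.75 with equal array medians and 0.69 with the mean of its probe sets, both short of 2-fold, and turned to -0.23 after quantile normalization, which gives all arrays the same distribution of signals. Only 2 probe sets of the IPE array were brighter than this one, against 16 on the CBPE array and 7 on the RPE array. Sparc signals were thus high in every culture, and whether IPE was lower depended on the scaling. A further probe set for Sparc was at 14.6, 18.5 and 1.2, near or under the floors.

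Sparcl1 encodes hevin, a relative of SPARC known from vessels and astrocytes. Its single probe set gave 14.4 for IPE, 35.8 for CBPE and 1.9 for RPE. Only the CBPE signal was above the floor, at least 2.47-fold above IPE and at least 2.13-fold above RPE. With the floor at the 60th percentile of each array the log2 differences shrank to 0.28 for CBPE minus IPE and -0.39 for RPE minus CBPE, so these calls depend on where background is set. Endothelial markers had the same order in part: 11 of 12 were above background in CBPE and 5 of 12 in IPE and in RPE, with summed signals of 2053 in CBPE, 1282 in IPE and 636.7 in RPE. Emcn alone was 745.1 of the IPE sum, 1114.8 of the CBPE sum and 211.2 of the RPE sum. Eng was highest in IPE, at 362.3, with 293.2 in CBPE and 240.6 in RPE. Cdh5 was at 108.3 in CBPE, with 7.8 in IPE and 16 in RPE, and Vwf was at background on all 3 arrays. The part of endothelial cells in the Sparcl1 signal was not tested. In RNA from a whole culture, a larger number of cells of one type and more RNA per cell cannot be told apart.

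Smoc1, a secreted calcium-binding protein needed for eye and limb development, had its highest signal in IPE. Its single probe set gave 954 for IPE, 549.7 for CBPE and 421.6 for RPE. IPE was 1.74-fold above CBPE and 2.26-fold above RPE. The RPE difference passed 2-fold under all 7 alternatives, with log2 values from -1.39 to -1.18, and the CBPE difference passed it only with equal medians, at -1.05. Smoc1 was the only one of the 7 measured genes with its highest signal in IPE.

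Smoc2, its closest relative, ran in the opposite order. Its brighter probe set gave 8.7 for IPE, 36.4 for CBPE and 73.7 for RPE, and the other was under the floor on every array, at 1.4, 3.0 and 2.1. The IPE signal was under the floor, so RPE was at least 5.08-fold and CBPE at least 2.51-fold above IPE. RPE was 2.02-fold above CBPE, with both signals above background. Both IPE comparisons kept their direction under the 6 alternatives that gave a value, but CBPE minus IPE fell short of 2-fold with the floor at the 60th percentile (0.31) and with the mean of both probe sets (0.79). The RPE minus CBPE difference of 1.02 fell to 0.95 after quantile normalization and to 0.49 with the mean of both probe sets, each short of 2-fold. Skeletal muscle markers had summed signals of 100.2 for IPE, 1563 for CBPE and 1645 for RPE, of which Myh2 alone was 32.8, 1363 and 808.8. In RPE against CBPE, 4 of 9 measured were past 2-fold toward RPE and none toward CBPE, beside 3.75% and 4.26% of all genes. On the 3 arrays 1, 5 and 9 of 12 were above background, with Ckm, Myod1 and Myog at background throughout. Tendon markers, of which Kera was at background on every array, summed to 234.8, 8604 and 7572, with 3, 6 and 6 of 7 above background. The part of either cell type in the Smoc2 order was not tested.

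**Figure D1:**
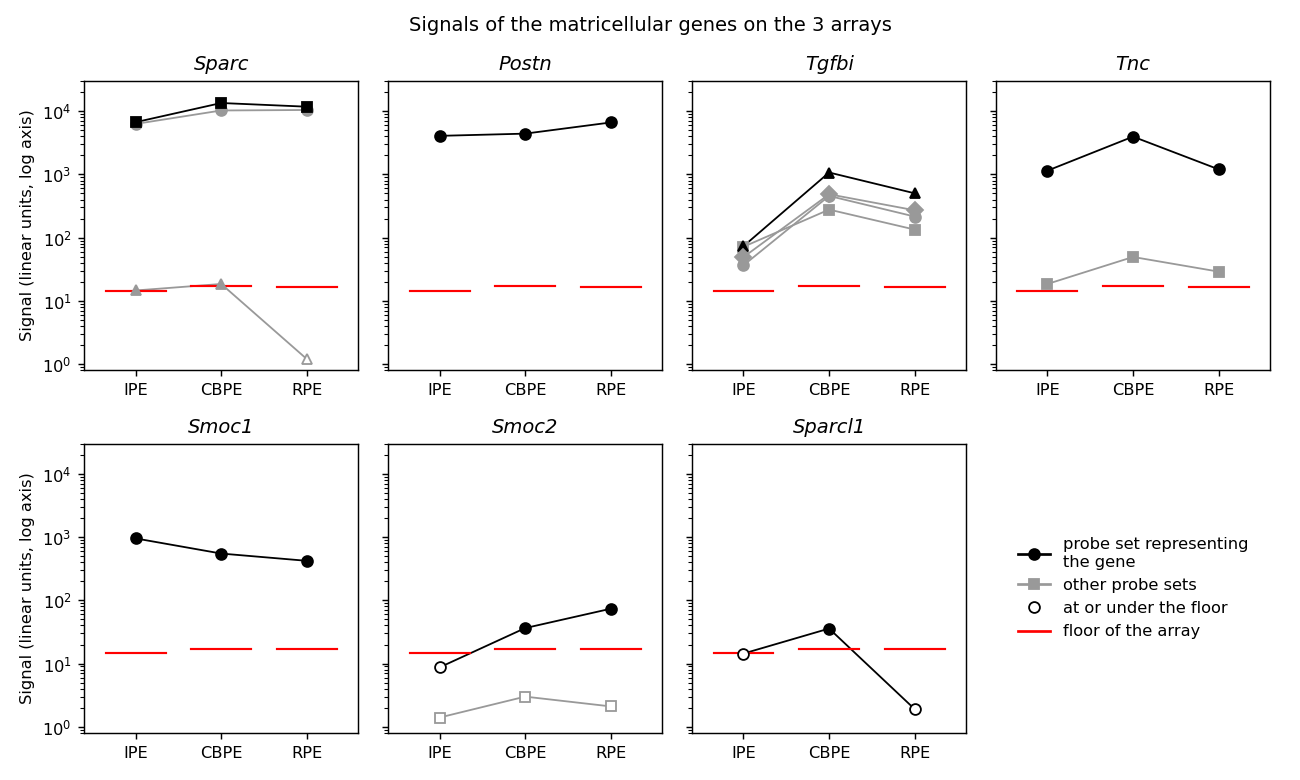
Signal of every probe set (linear units on a log axis) on the IPE, CBPE and RPE arrays, 1 panel per gene. Black marks the probe set that represents the gene, grey the others, open symbols signals at or under the floor and red lines the floors. Tgfbi climbs from 73.2 in IPE to 1072 in CBPE, Sparc and Postn stay high throughout, and Smoc1 and Smoc2 run in opposite orders.

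Postn, whose product periostin binds collagen I and integrins, had a single probe set with signals of 4074 for IPE, 4416 for CBPE and 6635 for RPE. RPE was highest, 1.63-fold above IPE and 1.50-fold above CBPE, and CBPE was 1.08-fold above IPE. No pair reached 2-fold as deposited. The log2 difference of 0.12 for CBPE minus IPE was inside the SD between probe sets and became -0.79 after quantile normalization. That for RPE minus CBPE was 0.59, about 2.03 times the SD of that comparison, and ran from 0.59 to 0.77 over the alternatives. Postn in RPE minus IPE went from 0.70 to -0.01 after quantile normalization, so its order in IPE was not settled.

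Tgfbi, the other fasciclin-domain gene and one named for its induction by TGF-β, had 4 probe sets, all above background on all 3 arrays. The brightest, an _s_at probe set, gave 73.2 for IPE, 1072 for CBPE and 502.7 for RPE. The probe set free of such a suffix gave 36.5, 456.9 and 215.4, and the first of 2 _x_at probe sets gave 49.2, 485.5 and 271. The second gave 71.7, 277.9 and 134.1. All 4 put CBPE first, RPE second and IPE last.

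CBPE was 14.7-fold above IPE by the brightest Tgfbi probe set, and 12.5-fold, 9.87-fold and 3.88-fold by the others. The mean log2 difference over the 4 was 3.19 ± 0.86 (SD over 4 probe sets of the same 2 arrays). RPE was 6.87-fold, 5.90-fold, 5.51-fold and 1.87-fold above IPE in the same order, with a mean of 2.18 ± 0.86 (SD, 4 probe sets). CBPE was 2.13-fold, 2.12-fold, 1.79-fold and 2.07-fold above RPE, a mean log2 difference of -1.02 ± 0.12 (SD, 4 probe sets) for RPE minus CBPE. The probe sets thus gave nearly one value for RPE against CBPE and a spread for both comparisons with the dim IPE signal. These suffixes mark probes that may match several transcripts, and without these probe sets CBPE minus IPE was 3.65. All 3 Tgfbi differences passed 2-fold in the same direction under all 7 alternatives.

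Tgfbi is also expressed by macrophages, and their markers were highest in CBPE. Of 13, 5 were above background in IPE, 10 in CBPE and 7 in RPE, with summed signals of 386.8, 2461 and 560.8. Lyz2 was at 130.9, 1288 and 231.6, while Ptprc, Itgam and Mrc1 were at background on all 3 arrays. Their part in the Tgfbi difference was not tested.

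Tnc encodes tenascin-C, which loosens cell adhesion. Its brighter probe set gave 1147 for IPE, 3960.1 for CBPE and 1203 for RPE, and the dimmer one 18.5, 49.5 and 29. Both had CBPE highest and IPE lowest. CBPE was 3.45-fold above IPE and 3.29-fold above RPE by the first, and 2.68-fold and 1.71-fold by the second. RPE and IPE differed by 1.05-fold by the first, a log2 difference of 0.07, and by 1.57-fold by the second. Tnc in CBPE minus IPE stayed between 1.32 and 1.79 over the 7 alternatives, and in RPE minus CBPE between -1.72 and -1.25, so both calls held. Tnc in RPE minus IPE changed sign under quantile normalization (-0.16) and equal medians (-0.14) and never reached 2-fold.

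**Figure D2:**
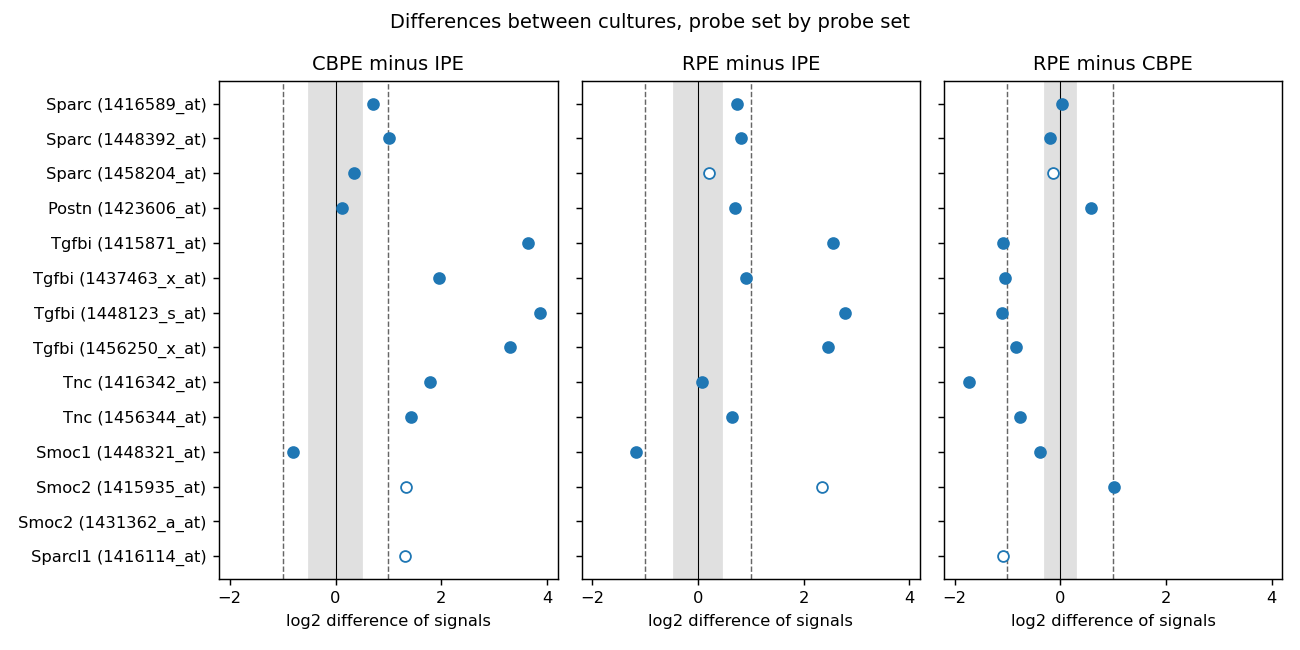
Log2 difference of signals for each probe set in the 3 comparisons, with the grey band at plus and minus 1 pooled SD between probe sets and dashed lines at 2-fold. Open circles have 1 array at the floor. All 4 Tgfbi probe sets lie beyond the band in each comparison, and Sparc lies inside it in RPE minus CBPE. The band comes from signals above 100 on both arrays and does not measure the error of dimmer ones, such as Tgfbi in IPE.

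In CBPE against IPE, 5 of the 7 measured genes were past 2-fold toward CBPE (Tgfbi, Tnc, Smoc2, Sparcl1 and Sparc), where 11.8% of all measured genes were, and none was higher in IPE, where 12.5% were. Smoc2 and Sparcl1 were under the floor in IPE and counted as measured through CBPE alone, so neither could be called toward IPE. The 5 fell to 3 with the floor at the 60th percentile, with a fixed floor of 100, under which 5 genes were measured, and with averaged probe sets. They fell to 4 after quantile normalization, where 1706 of 12829 genes were past 2-fold toward CBPE. With equal medians they also fell to 4, where 945 of 12831 genes were. The median log2 difference of the 7 was 1.30 against 0.04 over all genes. In RPE against IPE, 2 of 6 (Tgfbi and Smoc2) were higher in RPE, beside 9.87% of all genes, and Smoc1 was higher in IPE, beside 10.5%. The median there was 0.76 against 0.02. In RPE against CBPE, Tgfbi, Tnc and Sparcl1 were higher in CBPE, beside 4.26% of all genes, and Smoc2 was higher in RPE, beside 3.75%. That median was -0.38 against -0.002 over all genes. The filter likewise fixed the direction of Smoc2 in RPE against IPE and of Sparcl1 in RPE against CBPE. The comparisons share arrays, so these counts are not independent of each other.

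Scaling changed the split of all calls. Of the genes called between CBPE and IPE, 48.5% were higher in CBPE as deposited, 58.2% after quantile normalization and 28.5% with equal medians, which shifts the median of all genes to -0.22. For RPE against IPE these shares were 48.5%, 57.9% and 28.9%, with a median shifted to -0.20. Tgfbi, Tnc in CBPE and Smoc1 kept their directions under both rescalings, while Sparc and Postn in CBPE minus IPE did not under quantile normalization. Postn there also turned to -0.14 with equal medians. Under quantile normalization RPE minus IPE changed sign for Sparc (-0.12) and Postn (-0.01), and RPE minus CBPE did for Sparc (0.11).

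Among the other family members, Fstl1, a secreted SPARC-family glycoprotein, also had IPE lowest, at 3122 for IPE, 8068 for CBPE and 7242 for RPE. Fstl1 was 2.58-fold and 2.32-fold above IPE in CBPE and RPE, and after quantile normalization its log2 differences were still positive, at 0.53 and 0.63. The testican genes were dim: Spock1 reached 31.7, in IPE, Spock2 reached 15.4, also in IPE, and Spock3 was under the floor on every array. Stab1, a fasciclin-domain scavenger receptor of macrophages and sinusoidal endothelium that takes up SPARC, was at 11.5 for IPE, 77.2 for CBPE and 26.2 for RPE. Stab2 was above background in RPE alone, at 26.3. Tnxb followed Tnc in having CBPE highest, at 14.9, 41.8 and 11.9, and Tnr and Tnn were under the floor on all 3 arrays. Of the osteopontin relatives, Ibsp, Mepe and Dspp were under the floor throughout and Dmp1 reached 18.6 in RPE.

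Receptors for these proteins did not move as 1 group. Of 18 measured in CBPE against IPE, 4 were past 2-fold toward CBPE and 2 toward IPE, beside 11.8% and 12.5% of all genes, with a median log2 difference of 0.48. Of 17 measured in RPE against CBPE, 5 were higher in CBPE, beside 4.26% of all genes, and none in RPE. Of 18 in RPE against IPE, 2 were higher in RPE and 3 in IPE, beside 9.87% and 10.5%. Sdc4, a syndecan that acts as a fibronectin co-receptor, was at 58 for IPE, 2508 for CBPE and 640.1 for RPE. Egfr, whose product low-affinity tenascin-C repeats can bind, was at 75.4, 375.5 and 289.2. Itgb1 and Cd44, an integrin chain and an osteopontin receptor, were brighter in IPE than in RPE, by 2.16-fold and 2.39-fold.

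Structural partners of SPARC and periostin mostly had IPE lowest as deposited. Of 22, 10 were past 2-fold toward CBPE and 2 toward IPE, beside 11.8% and 12.5% of all genes. In RPE against IPE 6 were past it toward RPE and 2 toward IPE, beside 9.87% and 10.5%. Col1a2 was at 4828 for IPE, 12392 for CBPE and 10181 for RPE, and Col3a1 at 6251, 13644 and 10440.3. Bgn was 2.81-fold and Lox, the collagen cross-linking enzyme, 2.70-fold brighter in CBPE than in IPE. The list's median in CBPE minus IPE went from 0.89 to 0.20 after quantile normalization, where all genes had 0.13. After it Col1a2 was at 0.285 and Col3a1 at -0.01, so these bright collagen genes and Sparc share the dependence on scaling. Col6a1, Col6a2 and Col6a3 of the list did not, with 1.60, 2.71 and 2.21 after it. In RPE against CBPE, 21 of 22 were within 2-fold. Dcn was higher in CBPE, beside 4.26% of all genes, and none was higher in RPE, beside 3.75%.

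Of the enzymes that cut or cross-link matricellular proteins, Mmp3 stood at 132.7 for IPE, 6095 for CBPE and 2565 for RPE. Ctsk, a collagenolytic cathepsin, was at 226.2, 813.4 and 1090.2, and Tgm2, a transglutaminase, and Plat, a plasminogen activator, were highest in IPE, at 1485 and 1141. In CBPE against IPE, 7 of 16 were higher and 1 lower, beside 11.8% and 12.5% of all genes. In RPE against IPE 3 of 14 were higher and 2 lower, beside 9.87% and 10.5%, and in RPE against CBPE none of 16 was higher and 3 were lower, beside 3.75% and 4.26%. Of the ligands known to induce these genes, Tgfb2 was highest in IPE, where Tgfbi was lowest, at 622.6 for IPE, 192.4 for CBPE and 179.1 for RPE. Tgfb3 had the order of Tgfbi, at 357, 637.1 and 402, and Tgfb1 was also highest in CBPE, at 201, 282.7 and 147, with no pair of either gene past 2-fold. Pdgfb was at 13.3, 128.8 and 21.4, and Bmp6 at 69, 162.8 and 82.8, both highest in CBPE as Tnc was. Bmp7 was above background in IPE alone, at 107.9. Against the same shares of all genes, 3 of 10 ligands measured in CBPE against IPE were higher and 2 lower, none of 9 in RPE against IPE was higher and 3 were lower, and none of 9 in RPE against CBPE was higher and 1 was lower.

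**Figure D3:**
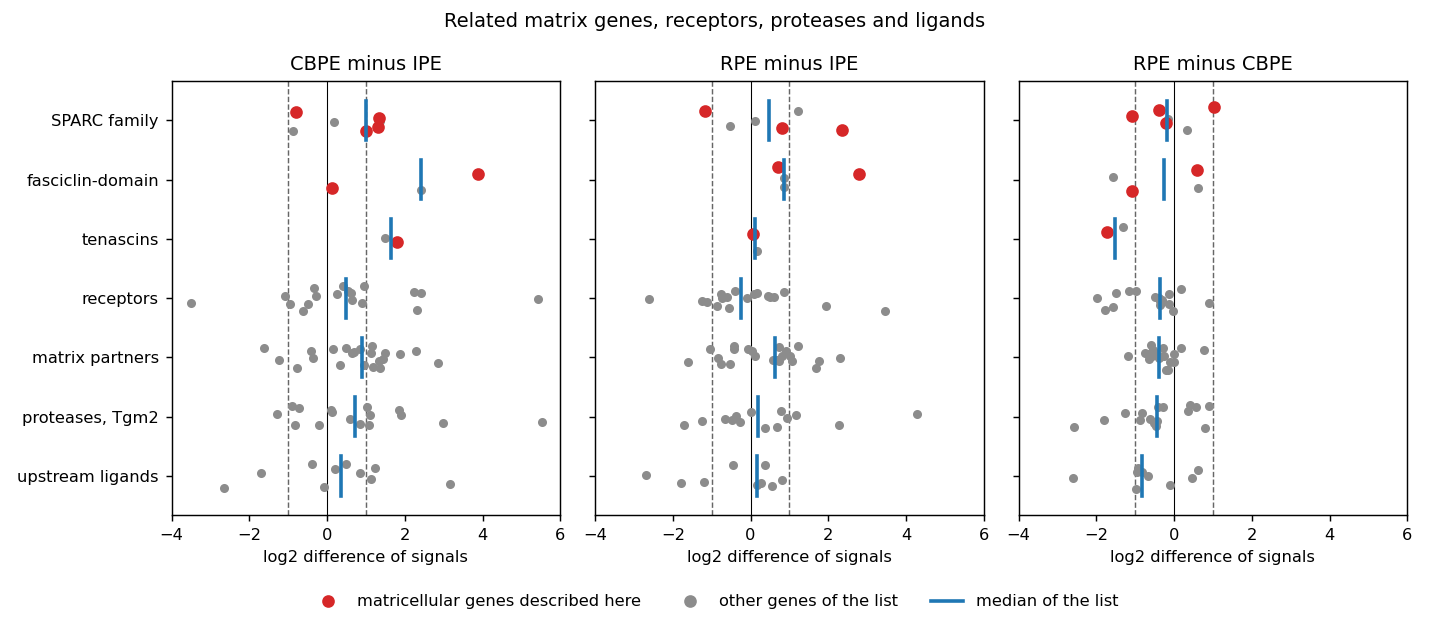
Log2 differences of the genes in 7 lists for the 3 comparisons, with the described genes in red, other list genes in grey, blue bars at list medians and dashed lines at 2-fold. In CBPE minus IPE the matrix partners have a median of 0.89 and the receptors one of 0.48, and in RPE minus CBPE Tnc and Tnxb lie together beyond 2-fold on the CBPE side.

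The labels were checked against markers. Of 12 pigment epithelium markers, 10 were above background in IPE, 8 in CBPE and 10 in RPE, with summed signals of 5815, 1164 and 1958. Rpe65, which defines mature RPE, was at background on all 3 arrays, at 2.4 in RPE, and Dct was at 1429 for IPE, 2 for CBPE and 286.5 for RPE. The cytokeratin genes of the list ran the other way: Krt8 was at 17.4, 95.3 and 26.2 and Krt18 at 144.1, 422.4 and 218.6, both highest in CBPE. Fibroblast markers, which share Col1a1, Col1a2, Col3a1 and Dcn with the matrix partners, were above background for 12 of 13 in IPE and all 13 in CBPE and RPE, with summed signals of 25775, 54816 and 41372, although Pdgfra was highest in IPE, at 2020.3, 776.6 and 958.1. Pericyte and smooth muscle markers summed to 10021, 26189 and 16821, with Rgs5 at 10.4, 3974 and 1416 and Abcc9 at background on every array, but Myh11, at 99.4, 22.1 and 40, and Des, at 91.3, 28.5 and 32.4, were highest in IPE. As deposited, Tgfbi and Sparc were lowest in the culture where these sums were lowest, which for Sparc depended on the scaling. Some bright genes in both sums shared that dependence and others did not. After quantile normalization CBPE minus IPE was -0.01 for Col3a1, -0.93 for Dcn and -0.16 for Tagln. It was 0.43 for Col1a1, 0.285 for Col1a2 and 0.28 for Acta2. S100a4 of the fibroblast list kept 3.44. Rgs5, under the floor in IPE, was at 7.67 with its IPE signal raised to the floor. The part of fibroblasts, pericytes or smooth muscle in either Tgfbi or Sparc was not tested. Glial markers summed to 2769 for IPE, 429.8 for CBPE and 862.2 for RPE, of which Glul alone was 2558, 309.6 and 743.2, and bone and cartilage markers to 169.5, 184.1 and 126.7.

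The genes whose pattern over the 3 arrays was most like each member's were found by the Euclidean distance between log2 signals centred on their mean, among 10244 genes above the floor on every array. For Tgfbi these were Aoc3 (distance 0.05), Fam20a (0.19) and Mn1 (0.27), and only 2 genes lay within 0.25. For Tnc they were Nrarp (0.05), Prelid2 (0.06) and Heyl (0.11), with 19 genes within 0.25. For Smoc1 they were Mettl14, Slc35f3 and Camta1, for Sparc Nqo2, Eif3m and Lig1, and for Postn Acad9, Tradd and Bivm. Sparc had 598 genes within 0.25, Postn 596 and Smoc1 328, so over 3 arrays their patterns single out no gene. The distance was not scaled for the size of the differences, so a gene with large ones has few neighbours. The low counts for Tgfbi and Tnc therefore do not show that their order over the cultures is rare. Genes under the floor on any array, such as Tnmd and Rgs5 in IPE, were not compared.

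**Figure D4:**
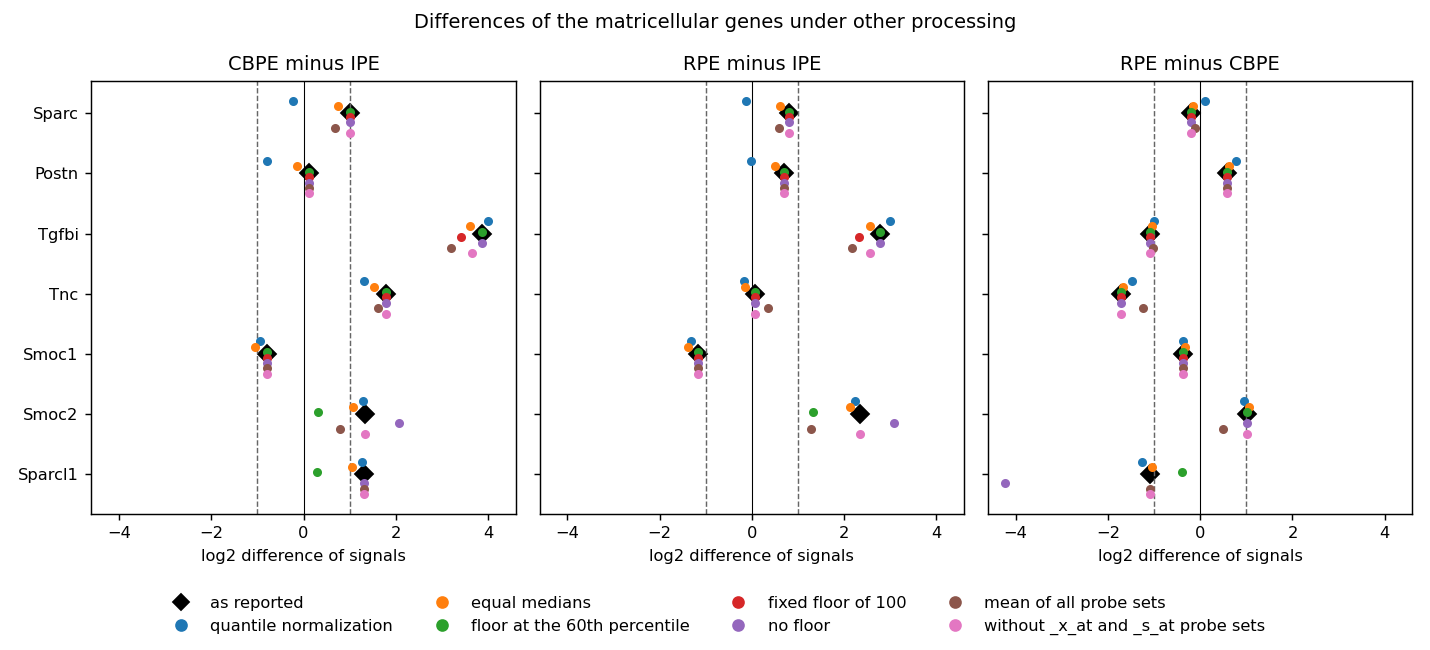
Log2 difference of each gene in the 3 comparisons as reported (diamonds) and under 7 other ways of processing (circles), with dashed lines at 2-fold. Tgfbi stays beyond 2-fold everywhere, Sparc in CBPE minus IPE runs from -0.23 to 1.01, and the dim genes Smoc2 and Sparcl1 move with the floor.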

How the data were processed

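The authors deposited 1 linear intensity per probe set and array; their summary software is not given in the sources used here. A 2% trimmed mean of these deposited intensities was 100.001 on all 3 arrays, so they had been scaled to a common level, and that scale was kept. Per the labels' protocols, biotin-labelled RNA primed with oligo-dT was hybridised. Gene names came from a platform annotation, updated by gene identifier to RefSeq's GRCm38.p6 table. Of 35890 listed probe sets, 34958 had 1 gene and 932 several, which were not used; 9211 were not listed.

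Signals were raised to a floor at the 50th percentile of each array's non-control probe sets, then log2 was taken. Each of 18193 genes took the values of the probe set brightest on average (mean log2). A gene was measured in a comparison if above the floor on at least 1 of both arrays, and called at 2-fold. Folds against a dim array used the higher of its floor and its 27 absent bacterial controls. The SD between probe sets used signals above 100 on both arrays. Named are all members, relatives of their families, and up to 4 genes per list with a 2-fold difference, taken by mean signal. Single cell type markers were picked after their values were seen. Members, lists and motifs were chosen with earlier results of these data known. The steps were tested on simulated data. Python 3.11.15, numpy 2.4.6 and pandas 2.3.3 were used.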

Additional observations from a re-analysis of the deposited data

How the results depend on the processing

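Of 20 differences of the measured genes, 12 were at least 2-fold, and 7 of these were so under every alternative tried that gave a value: all 3 of Tgfbi, both of Tnc, Smoc1 in RPE minus IPE and Smoc2 in RPE minus IPE. Of all measured genes, 24.3% were at least 2-fold different between CBPE and IPE, 20.3% between RPE and IPE and 8.01% between RPE and CBPE. How many of those held under every alternative was not computed. The comparisons share arrays, so the differences of 1 gene are not independent. Sparc in CBPE minus IPE reversed, from 1.01 to -0.23, after quantile normalization. Genes past 2-fold toward CBPE against IPE numbered 3 in place of 5 under each of 3 settings: the floor at the 60th percentile, a fixed floor of 100 and averaged probe sets. The fixed floor also left 1 of 2 higher in RPE than in IPE and 0 of 1 higher in RPE than in CBPE. It cut the related genes higher in CBPE than in RPE from 11 of 69 to 6 of 52. Fewer genes were then measured, and dim signals were raised to 100, as that of Pdgfb in RPE (21.4). Averaged probe sets and quantile normalization each left 0 higher in RPE than in CBPE. Quantile normalization gave 1 of 69 related genes higher in RPE than in CBPE in place of 0. With equal medians 1 gene was higher in IPE than in CBPE in place of 0, and 12 of 70 related genes in place of 7. Over all 12831 genes the same setting raised the number higher in IPE than in CBPE from 1609 to 2369. Without a floor more dim genes were measured, with 84 related genes in each comparison in place of 69 or 70. Then 2 genes in place of 1 were higher in IPE than in RPE. Related genes numbered 16 in place of 7 higher in IPE than in CBPE, and 25 in place of 12 higher in RPE than in IPE. They numbered 18 in place of 10 higher in IPE than in RPE, and 8 in place of 0 higher in RPE than in CBPE. Shares over all genes were not computed for the other floors. The other 68 of 84 counts stayed within 1.5 times. The cause of the changes in counts was not tested. Leaving out a replicate was not possible with 1 array per culture. No paired analysis was possible because no test was made. Signals at or near the floors, as for Sparcl1 and Smoc2 in IPE, give only bounds.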
